A study of Mus musculus with 50 samples.

Results

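Rprm, Sprr1a, Uchl1, Tnfrsf12a and Uck2 were followed in 50 left-ventricle libraries from mice, as 5 of the 35717 genes in the table. They were chosen by their measured values, for a large rise in hearts with a LARP6 transgene over hearts without it in these same data. The rise varied in size and under saline was smallest for Uck2, at a log2 difference of 0.58. All 5 were found by symbol, and all 5 were among the 11628 genes tested, for which 5 or more libraries had to reach an FPKM of 1. FPKM is a fragment count scaled by transcript length and by the mapped fragments of the library, and levels below are the deposited FPKM divided by a scaling factor per library (scaled FPKM).

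The hearts came from C57BL/6J mice, 40 weeks old, of both sexes. Transgenic mice (Tg) overexpress LARP6, an RNA-binding protein, in cardiomyocytes, and their wild-type littermates (WT) do not. Angiotensin II (Ang II, a peptide that constricts vessels and loads the heart) was given at 1000 ng per kg per minute for 21 days, and the others received saline. This gave 13 Tg Ang II, 12 Tg saline, 14 WT Ang II and 11 WT saline libraries. The promoter of the transgene and the number of founder lines are not given in the sources used here, and the table has 1 row for Larp6, which does not separate the transgene from the mouse's own gene.

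The members are known from separate processes. Rprm (reprimo) is a target of p53 that holds dividing cells before mitosis. Sprr1a is a small proline-rich protein of the cornified envelope of skin that is also induced in injured neurons and in stressed heart muscle cells. Uchl1 is a ubiquitin hydrolase best known from neurons. Tnfrsf12a encodes Fn14, the receptor of the cytokine TWEAK, and Uck2 is a kinase that phosphorylates uridine and cytidine in pyrimidine salvage.

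Larp6 itself checks the labels. Its level was 587, 946 and 1177 scaled FPKM (lowest, median and highest) in Tg Ang II, 443, 976 and 1627 in Tg saline, 19.6, 37.7 and 1001 in WT Ang II and 5.59, 32.1 and 63.5 in WT saline. The value of 1001 belongs to library 329, a male labelled WT with Ang II, which stands among the Tg libraries. The header of the table gives library 329 the letters of Tg and library 847, a male labelled Tg with Ang II, the letters of WT. Library 847 had 1117 scaled FPKM of Larp6, in the Tg range. Both were kept under their labels, and the main results for the members are also given without them. Total counts ranged from 53877439 to 91579342 per library. Transcripts of the mitochondrial genome held 28.06% to 38.81% of counts, and all 25 female and 25 male labels matched the sex genes.

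The 5 genes lie on separate chromosomes (GRCm38). Rprm (ENSMUSG00000075334) is a gene of 1 exon on chromosome 2, from 54084093 to 54085552 on the minus strand. Sprr1a (ENSMUSG00000050359) has 2 exons on chromosome 3, from 92483952 to 92485895 on the minus strand. Uchl1 (ENSMUSG00000029223) has 9 exons on chromosome 5, from 66676091 to 66687234 on the plus strand. Tnfrsf12a (ENSMUSG00000023905) has 5 exons on chromosome 17, from 23675445 to 23677468 on the minus strand. Uck2 (ENSMUSG00000026558) has 7 exons on chromosome 1, from 167222883 to 167285320 on the minus strand. Exon counts are those of the GENCODE M21 transcript with the longest coding sequence.

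The promoters of the 3 members with the largest rise are shown because these members had the largest differences between the genotypes. Each line gives the 200 bases before the start site from RefSeq (GRCm38.p6), 5′ to 3′ on the gene's own strand, and capitals mark AP-1 sites (TGANTCA), GC boxes (GGGCGG on either strand) and the TATA box, searched with the letters TATAAA. The stretches are chr2:54085553-54085752 for Rprm, chr3:92485882-92486081 for Sprr1a and chr17:23677450-23677649 for Tnfrsf12a, all on the minus strand.
Rprm: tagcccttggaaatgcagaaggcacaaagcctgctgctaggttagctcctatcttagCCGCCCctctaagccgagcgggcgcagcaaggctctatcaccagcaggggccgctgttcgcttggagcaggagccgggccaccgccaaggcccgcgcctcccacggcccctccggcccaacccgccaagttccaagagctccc
Sprr1a: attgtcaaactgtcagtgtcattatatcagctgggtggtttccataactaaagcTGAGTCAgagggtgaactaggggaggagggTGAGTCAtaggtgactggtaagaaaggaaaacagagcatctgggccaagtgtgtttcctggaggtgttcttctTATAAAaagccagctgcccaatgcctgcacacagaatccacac
Tnfrsf12a: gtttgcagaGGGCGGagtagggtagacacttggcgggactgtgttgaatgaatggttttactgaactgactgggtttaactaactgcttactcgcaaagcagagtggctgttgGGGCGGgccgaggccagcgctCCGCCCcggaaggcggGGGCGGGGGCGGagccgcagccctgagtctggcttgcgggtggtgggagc
The 3 sequences differ in the motifs they carry. Sprr1a held 2 AP-1 sites, both written TGAGTCA, at -146 and -116 from the start site, a TATA box at -43 and no GC box. Tnfrsf12a held 5 GC boxes, of which a pair abut each other, and neither of the other motifs. Rprm held 1 GC box at -143 and neither of the others. Of the members not printed, Uck2 held 4 GC boxes, a pair of which overlap, and Uchl1 held none of the 3 motifs. Searches covered windows of 250 bases before and 50 bases after the start site. Of 32851 such windows in the RefSeq table, 7.81% held an AP-1 site, 13.6% a TATA box and 35.7% a GC box. CREs (TGACGTCA, 1.79% of windows), TEAD sites (CATTCC, 14.7%), STAT sites (TTCNNNGAA, 8.3%) and SRF sites (CArG box, 1.63%) had no match in any of the 5 members. E-boxes (CANNTG, 72.3% of windows) had 6 matches in Sprr1a, 1 in Tnfrsf12a and 0 in the others. A match here describes letters only and shows no binding.

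Rprm had the largest difference between the genotypes. Its level was 16.8, 31.7 and 44.1 scaled FPKM (lowest, median and highest) in Tg Ang II and 19.3, 35.7 and 56.6 in Tg saline. The WT values were 0.629, 1.55 and 29.0 in WT Ang II and 0.239, 1.27 and 2.41 in WT saline. Every Tg library lay above every WT library except 329, and the next highest WT library reached 2.65. The log2 difference of Tg minus WT was 4.86 ± 0.41 (SE) under saline and 3.45 ± 0.34 under Ang II. Without libraries 329 and 847 the difference under Ang II was 4.31 ± 0.20. Among the 11628 genes tested it stood 4th by this difference in either treatment. These differences, here and for the other members, are descriptions without a test, since they chose the genes.

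Sprr1a showed the same order of genotypes over a wider spread. Tg Ang II libraries had 3.41, 11.1 and 24.0 scaled FPKM (lowest, median and highest) and Tg saline libraries 4.30, 6.32 and 13.99. WT Ang II libraries had 0.524, 0.769 and 11.2, and WT saline libraries 0.104, 0.506 and 1.14. In WT saline the counts behind these levels ran from 8 to 57, so single WT values are imprecise. Under saline the genotypes did not overlap. Under Ang II, 2 WT libraries passed the lowest Tg library, namely 329 and the female 779 with 3.59. The log2 difference of Tg minus WT was 4.07 ± 0.43 under saline and 2.78 ± 0.34 under Ang II, or 3.30 ± 0.30 without libraries 329 and 847. In limma-trend on log2(FPKM + 1), a scale that understates changes of low values, the difference under saline was 2.53 ± 0.24.

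Tnfrsf12a was the most abundant member in WT hearts. It had 21.9, 38.2 and 53.5 scaled FPKM (lowest, median and highest) in Tg Ang II, 21.7, 29.0 and 39.7 in Tg saline, 9.18, 17.5 and 51.4 in WT Ang II and 5.74, 9.90 and 12.2 in WT saline. The saline groups did not overlap, while 5 of 14 WT Ang II libraries exceeded the lowest Tg Ang II library. The log2 difference of Tg minus WT was 1.62 ± 0.20 under saline and 0.89 ± 0.18 under Ang II, or 1.10 ± 0.16 without libraries 329 and 847.

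Uchl1 and Uck2 differed less between the genotypes than the other members, and under saline they overlapped more. Uchl1 had 6.06, 9.32 and 14.6 scaled FPKM (lowest, median and highest) in Tg Ang II, 5.10, 6.45 and 8.45 in Tg saline, 2.82, 5.24 and 14.03 in WT Ang II and 2.27, 3.21 and 5.15 in WT saline. The highest WT value, 14.03, came from the female 779, which was also high for Sprr1a. Uck2 had 7.82, 10.9 and 26.4 in Tg Ang II, 5.17, 7.10 and 7.70 in Tg saline, 4.80, 6.25 and 13.4 in WT Ang II and 3.46, 4.23 and 5.31 in WT saline. Its highest value came from the Tg Ang II male 715, and the WT Ang II female 165 and male 159 followed within WT at 13.4 and 12.2. Under saline, 1 of 11 WT libraries passed the lowest Tg library for Uchl1 and 2 of 11 did so for Uck2. Under Ang II, 5 of 14 did so for Uchl1 and 3 of 14 for Uck2, beside 5 of 14 for Tnfrsf12a. The log2 differences of Tg minus WT were 0.98 ± 0.18 under saline and 0.72 ± 0.16 under Ang II for Uchl1. For Uck2 they were 0.58 ± 0.15 under saline and 0.61 ± 0.14 under Ang II. The differences under Ang II without libraries 329 and 847 were 0.74 ± 0.16 for Uchl1 and 0.69 ± 0.14 for Uck2.

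**Figure D1:**
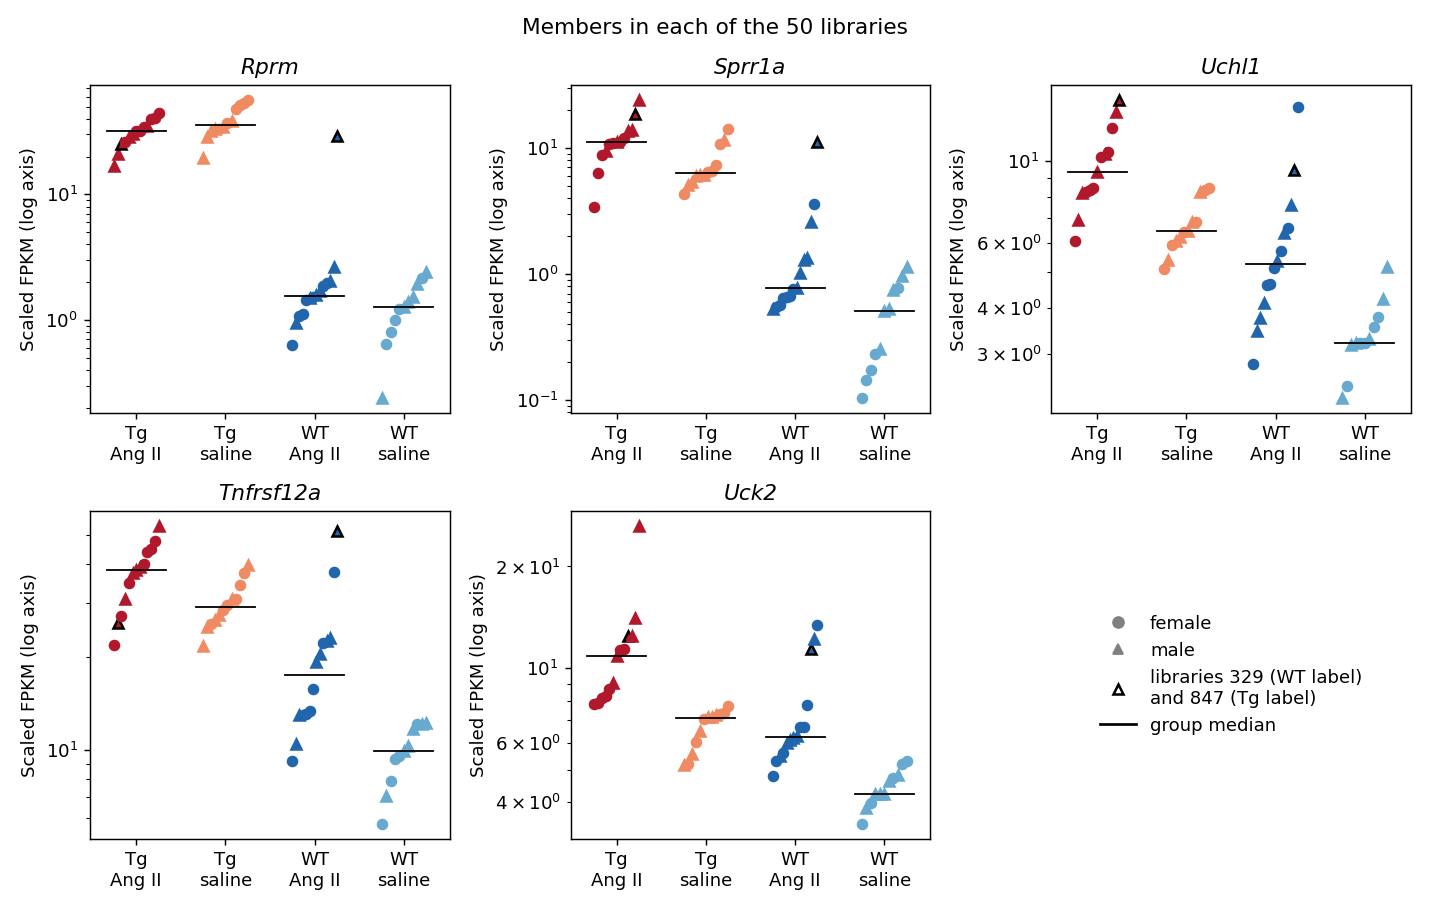
Scaled FPKM (log axis) of each member in all 50 libraries, with Tg Ang II, Tg saline, WT Ang II and WT saline from left to right, circles for females, triangles for males and lines for group medians. Library 329, outlined among the WT Ang II males, lies among the Tg libraries for Rprm at 29.0. Uck2, Uchl1, Tnfrsf12a and Sprr1a overlap between the genotypes under Ang II.

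All 5 members passed an adjusted p of 0.05 as higher in Tg in both treatments, against a background of 20.4% of genes called higher and 20.2% lower under saline, and 16.4% higher and 16.4% lower under Ang II. The choice of the members fixes this count, so nothing is read from it. With females alone 3 of 5 were called under Ang II and 5 of 5 under saline, and with males alone 5 of 5 under Ang II and 4 of 5 under saline. In either direction, females alone gave 2181 of 11628 genes called under Ang II and 3106 under saline, and males alone 2015 and 2159. The same choice lies behind these counts of members, so nothing is read from them either. By size of the saline difference Rprm stood 4th, Sprr1a 6th, Tnfrsf12a 60th, Uchl1 202nd and Uck2 555th of 11628. The rule held no threshold, so no values just outside it can be given.

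Both Tg groups stood above both WT groups by their means in every member except Uck2. The distance between Tg saline and WT Ang II varied from member to member. The mean of Rprm in Tg saline was 25.1 times its mean in WT Ang II when library 329 was left out, and that of Sprr1a was 6.48 times. The same ratio was 1.66 for Tnfrsf12a, 1.17 for Uchl1 and 0.930 for Uck2. By their means the groups of Uck2 stood in the order Tg Ang II (11.4 ± 4.95 scaled FPKM, SD, n = 13), WT Ang II (7.43 ± 2.78, n = 14), Tg saline (6.62 ± 0.905, n = 12) and WT saline (4.43 ± 0.567, n = 11). The difference between Tg saline and WT Ang II was not tested for any member.

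Ang II minus saline in WT hearts did not choose the members, although its libraries were the WT side of the difference that did. In it 4 of the 5 members rose whichever 1 library was left out. Tnfrsf12a averaged 20.3 ± 11.6 scaled FPKM in WT Ang II (SD, n = 14) and 9.80 ± 2.19 in WT saline (n = 11), and its log2 fold change was 1.06 ± 0.19 (SE, adjusted p = 1.1e-04). A total of 12 of 14 Ang II libraries lay above the highest saline library. Uck2 averaged 7.43 ± 2.78 in WT Ang II and 4.43 ± 0.567 in WT saline, a log2 fold change of 0.74 ± 0.15 (adjusted p = 3.2e-04), and again 12 of 14 Ang II libraries exceeded every saline library.

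Uchl1 averaged 5.97 ± 2.90 scaled FPKM in WT Ang II and 3.41 ± 0.790 in WT saline, with a log2 fold change of 0.82 ± 0.18 (adjusted p = 9.0e-04). Of the 14 Ang II libraries, 7 exceeded every saline library. Sprr1a averaged 1.87 ± 2.84 in WT Ang II and 0.504 ± 0.356 in WT saline, with a log2 fold change of 1.94 ± 0.42 (adjusted p = 8.5e-04). For Sprr1a, 5 of 14 Ang II libraries exceeded every saline library, and all 14 lay above the saline median. Without libraries 329 and 847 the log2 fold changes were 0.89 ± 0.17 for Tnfrsf12a, 0.68 ± 0.15 for Uck2, 0.73 ± 0.17 for Uchl1 and 1.39 ± 0.34 for Sprr1a, with adjusted p-values of 2.5e-04, 0.0010, 0.0024 and 0.0039.

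Rprm rose in the fit of all libraries (log2 fold change 1.10 ± 0.37, adjusted p = 0.034), but this rested on library 329. Without libraries 329 and 847 Rprm averaged 1.54 ± 0.531 scaled FPKM in WT Ang II (n = 13) and 1.33 ± 0.657 in WT saline (n = 11), a log2 fold change of 0.24 ± 0.21 (adjusted p = 0.49). Leaving out 329 alone gave 0.24 (adjusted p = 0.48), and leaving out any of libraries 157, 165, 718, 719 or 968 gave values between 0.99 and 1.07 with adjusted p-values of 0.053 to 0.064. With all libraries 5 of 5 members were called higher, where 9.71% of all genes tested were called higher and 8.87% lower. When libraries 329 and 847 were left out, 4 of 5 members passed, where 7.82% of genes were called higher.

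In Tg hearts, 2 of the 5 members rose with Ang II. The libraries of this contrast were the Tg side of the difference that chose the members, so it is not independent of that choice. Uck2 averaged 11.4 ± 4.95 scaled FPKM in Tg Ang II (SD, n = 13) and 6.62 ± 0.905 in Tg saline (n = 12). The groups did not overlap: the lowest Ang II library had 7.82 and the highest saline library 7.70. The log2 fold change of Uck2 was 0.78 ± 0.14 (adjusted p = 4.4e-04). Uchl1 averaged 9.79 ± 2.53 in Tg Ang II and 6.69 ± 1.13 in Tg saline, with a log2 fold change of 0.55 ± 0.17 (adjusted p = 0.033). This call on Uchl1 was lost, at adjusted p-values of 0.0505 to 0.0699 and log2 fold changes of 0.49 to 0.54, when any of libraries 237, 299, 327, 333, 489, 528, 715 or 847 was left out.

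The other 3 members did not pass in Tg hearts. Sprr1a averaged 11.8 ± 5.16 scaled FPKM in Tg Ang II and 7.47 ± 2.98 in Tg saline (log2 fold change 0.65 ± 0.33, adjusted p = 0.23). Tnfrsf12a averaged 37.4 ± 9.16 in Tg Ang II and 29.8 ± 5.29 in Tg saline (0.33 ± 0.18, adjusted p = 0.28). Rprm averaged 31.2 ± 7.83 in Tg Ang II and 38.8 ± 11.2 in Tg saline (-0.32 ± 0.32, adjusted p = 0.60), the only member whose estimate was below 0. Across all genes tested 4.88% were called higher and 4.04% lower with Ang II in Tg hearts. Without libraries 329 and 847 the share called higher was 4.28%, and Uck2 alone of the members passed (0.80 ± 0.14, adjusted p = 3.6e-04), with Uchl1 at 0.49 ± 0.17 (adjusted p = 0.054).

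**Figure D2:**
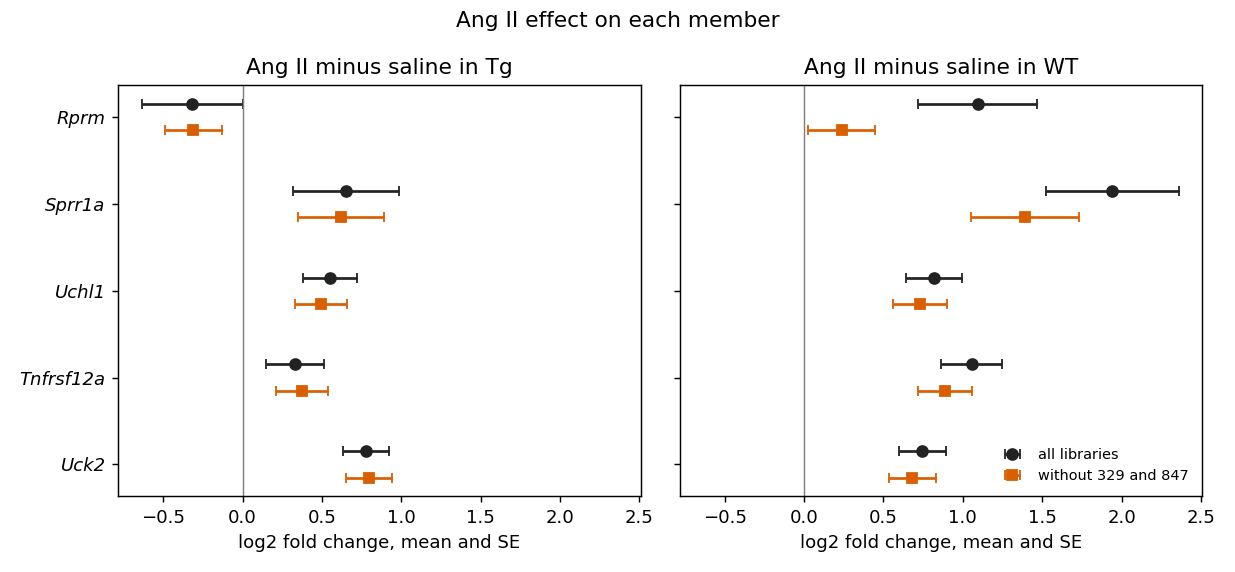
Log2 fold change of Ang II over saline (mean and SE from edgeR) for each member in Tg hearts (left) and WT hearts (right), with all libraries (circles) and without libraries 329 and 847 (squares). The WT estimate of Rprm is 1.10 with all libraries and 0.24 without both, and the 2 estimates for Uck2 in Tg are 0.78 and 0.80.

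Whether the response to Ang II differed between the genotypes was tested with the interaction of genotype and Ang II, to which the libraries behind the choice of the members also contributed. None of the 5 members passed in edgeR, where 0.043% of genes tested were called, and 0 of 5 passed in DESeq2 or in limma-trend at either pseudocount. At an unadjusted p under 0.05 the count was 3 of 5 in edgeR and in DESeq2 and 2 of 5 in limma-trend. In edgeR 1136 of the 11628 genes tested were also under 0.05. Without libraries 329 and 847 the count was 1 of 5 in edgeR, where 934 of 11628 genes were under 0.05. The response in Tg minus that in WT was -1.41 ± 0.49 for Rprm (adjusted p = 0.325), -1.29 ± 0.53 for Sprr1a (adjusted p = 0.435) and -0.73 ± 0.26 for Tnfrsf12a (adjusted p = 0.353). It was -0.26 ± 0.24 for Uchl1 and 0.04 ± 0.20 for Uck2. Without libraries 329 and 847 the value for Rprm was -0.55 ± 0.28, that for Sprr1a -0.77 ± 0.43 and that for Tnfrsf12a -0.51 ± 0.23. Approximate 95% intervals of the difference, taken from the SE alone, were -0.36 to 0.44 for Uck2 and -2.37 to -0.45 for Rprm, before adjustment over genes. Without libraries 329 and 847 these intervals were -0.28 to 0.51 and -1.09 to -0.0081. The last excludes 0 only by this approximation, since the edgeR test of Rprm then gave an unadjusted p of 0.053 (adjusted p = 0.63).

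The sexes were compared within each genotype. In Tg hearts Rprm had 33.4, 49.6 and 56.6 scaled FPKM (lowest, median and highest) in saline females and 19.3, 32.6 and 38.1 in saline males. In Tg Ang II it had 26.1, 34.5 and 44.1 in females and 16.8, 26.9 and 35.2 in males. Female minus male was 0.52 ± 0.32 on the log2 scale in Tg (adjusted p = 0.56) and 0.51 ± 0.18 without libraries 329 and 847 (adjusted p = 0.23), so the difference did not pass. Larp6 differed by -0.02 ± 0.38 between the same females and males. In WT hearts the values were -1.20 ± 0.37 for Rprm (adjusted p = 0.12) and -1.33 ± 0.42 for Sprr1a (adjusted p = 0.12). They were -0.35 ± 0.21 and -0.78 ± 0.34 without libraries 329 and 847. None of the 5 members passed in edgeR in either genotype, where 0.645% of genes were called in Tg and 0.843% in WT. At an unadjusted p under 0.05 the count was 1 of 5 members in Tg and 2 of 5 in WT. Of the 11628 genes tested, 1291 in Tg and 1586 in WT were under 0.05. DESeq2, which called 163 genes in WT, called Sprr1a there (-1.30, adjusted p = 0.0425). In edgeR, leaving out library 159 brought Rprm in WT to -1.30 (adjusted p = 0.0498), and leaving out library 779 brought Sprr1a in WT to -1.69 (adjusted p = 0.0170).

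Relative to sex means, Uchl1 was higher where the load marker Nppa was higher, in Tg saline and in WT Ang II hearts. Nppa is the gene of atrial natriuretic peptide. On the same scale Rprm was lower where Nppa was higher in Tg saline hearts. The relations in Tg saline did not pass without the 2 libraries farthest from the median of the x axis. Correlations were taken within each of the 4 groups of genotype and treatment on log2(scaled FPKM + 0.1), centred on the mean of each sex, with two-sided permutation within sex. Of 80 relations, 11 passed an adjusted p of 0.05 by Pearson's r, 3 in Tg saline, 7 in WT Ang II, 1 in WT saline and 0 in Tg Ang II.

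In Tg saline (n = 12) Uchl1 rose with Nppa (r = 0.887, permutation p = 3.1e-04, adjusted p = 0.0062, Spearman rho = 0.902 with a permutation p of 5.3e-04). Rprm ran the other way, falling as Nppa rose (r = -0.906, permutation p = 6.6e-04, adjusted p = 0.0088, rho = -0.881 with a permutation p of 8.7e-04). Rprm also fell as Uchl1 rose (r = -0.881, permutation p = 5.8e-04, adjusted p = 0.0088, rho = -0.916 with a permutation p of 5.2e-04). Without the 2 libraries farthest from the median of the x axis the 3 values of r were 0.813, -0.784 and -0.913, and none of the 3 passed (adjusted p = 0.0548, 0.0769 and 0.0535). The r of Rprm and Nppa was -0.951 in the 6 females (adjusted permutation p = 0.13) and -0.879 in the 6 males (adjusted permutation p = 0.17), and neither passed. When the sexes were pooled without centring, it was -0.026. Without centring, the r of Uchl1 and Nppa was 0.749 (adjusted permutation p = 0.0502). That of Rprm and Uchl1 was then -0.531 (adjusted permutation p = 0.23), so none of the 3 passed. In Tg Ang II (n = 13) the r of Rprm and Nppa was -0.656 (permutation p = 0.018), which did not pass (adjusted p = 0.085). The r of Uchl1 and Nppa did not pass in Tg Ang II (r = 0.545, permutation p = 0.063, adjusted p = 0.16, rho = 0.445 with a permutation p of 0.15) or in WT saline (r = 0.052, permutation p = 0.88, adjusted p = 0.96, rho = 0.118 with a permutation p of 0.74).

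In WT Ang II (n = 14, library 329 included) Uchl1 again rose with Nppa (r = 0.914, permutation p = 1e-05, the smallest the resamples can give, adjusted p = 8.0e-04, rho = 0.908 with a permutation p of 4.0e-05). Tnfrsf12a and Uck2 rose together (r = 0.848, permutation p = 9.0e-05, adjusted p = 0.0024, rho = 0.881 with a permutation p of 1.7e-04). Both relations passed without libraries 329 and 847, at r = 0.918 and r = 0.823. They also passed without the 2 libraries farthest from the median of the x axis, at r = 0.927 and r = 0.903. By sex, Uchl1 with Nppa did not pass in females (r = 0.920, adjusted permutation p = 0.085). Tnfrsf12a with Uck2 did not pass in males (r = 0.736, adjusted permutation p = 0.19). Tnfrsf12a also rose with Uchl1 (r = 0.769, permutation p = 0.0027, adjusted p = 0.024, rho = 0.925 with a permutation p of 1e-05, again the smallest possible). Sprr1a rose with Nppa (r = 0.842, permutation p = 0.0014, adjusted p = 0.016, rho = 0.780 with a permutation p of 0.0027). The relations of Sprr1a with Uchl1 (r = 0.748, permutation p = 0.0036, adjusted p = 0.029, rho = 0.727 with a permutation p of 0.0086) and of Tnfrsf12a with Nppa (r = 0.740, permutation p = 0.0057, adjusted p = 0.041, rho = 0.776 with a permutation p of 0.0027) had the lowest r of those that passed. These last 4 relations did not pass without libraries 329 and 847, with r between 0.593 and 0.738 and adjusted p-values between 0.0813 and 0.178. Without the 2 farthest libraries the relation of Tnfrsf12a with Uchl1 passed (r = 0.874) and the other 3 did not, with r between 0.563 and 0.737. Without centring on sex, the relation of Sprr1a with Uchl1 did not pass (r = 0.680, adjusted permutation p = 0.074). Uchl1 and Uck2 passed by rank alone (rho = 0.824, permutation p = 8.4e-04, adjusted p = 0.0087), with r = 0.607 (permutation p = 0.034).

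**Figure D3:**
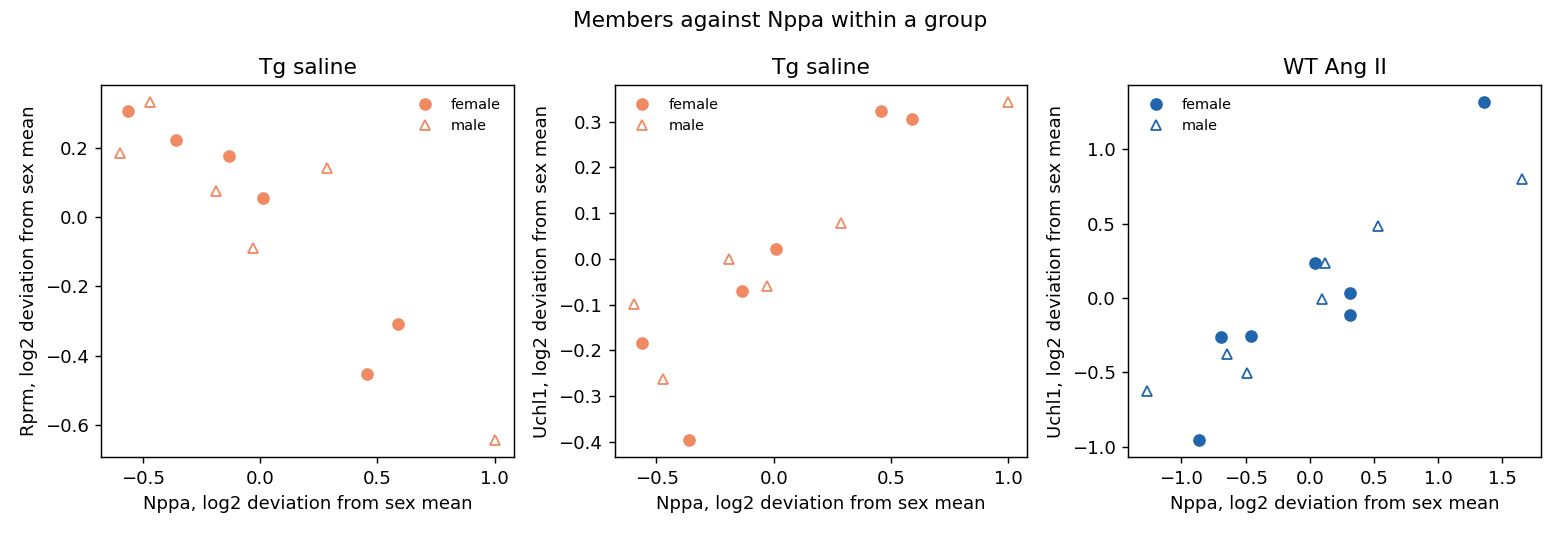
Deviation from the sex mean on the log2 scale of Rprm (left) and Uchl1 (middle) in Tg saline and of Uchl1 in WT Ang II (right), each against that of Nppa, with filled circles for females and open triangles for males. Rprm falls as Nppa rises (r = -0.906, n = 12), while Uchl1 rises with it in both groups (r = 0.887 and r = 0.914).

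In WT hearts the libraries with more Larp6 had more Rprm. In WT saline (n = 11) the r of Rprm and Larp6 was 0.946 (permutation p = 0.0016, adjusted p = 0.016, rho = 0.900 with a permutation p of 0.0013), and 0.897 without the 2 libraries farthest from the median, which did not pass (adjusted p = 0.0535). In WT Ang II without library 329 (n = 13) it was 0.814 (permutation p = 2.4e-04, adjusted p = 0.0064, rho = 0.808 with a permutation p of 0.0014). With library 329, which lies far from the others on both genes, it was 0.972 (permutation p = 4.0e-05, adjusted p = 0.0016). In Tg saline it was 0.752 (permutation p = 0.0080, adjusted p = 0.054) and in Tg Ang II 0.533 (permutation p = 0.046, adjusted p = 0.14), and neither passed. No other member passed against Larp6 in any of the 4 groups. Taken by sex, the r of Rprm and Larp6 did not pass in WT Ang II females (0.819, adjusted permutation p = 0.16). It did not pass in WT saline males either (0.988, adjusted permutation p = 0.13).

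The ratio of Rprm to Larp6 overlapped among the 4 groups. The level of Rprm was 3.03% of that of Larp6 in the median Tg Ang II library, 4.097% in Tg saline, 4.22% in WT Ang II without library 329 and 4.19% in WT saline, and 2.90% in library 329. In the 24 WT libraries other than 329 the mean of Larp6 was 3.68% of its Tg mean and that of Rprm 4.14%. For Sprr1a the same share was 8.78%, for Tnfrsf12a 42.1%, for Uchl1 56.0% and for Uck2 64.5%. Whether the WT fragments of Larp6 and Rprm came from the WT hearts themselves was not tested.

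**Figure D4:**
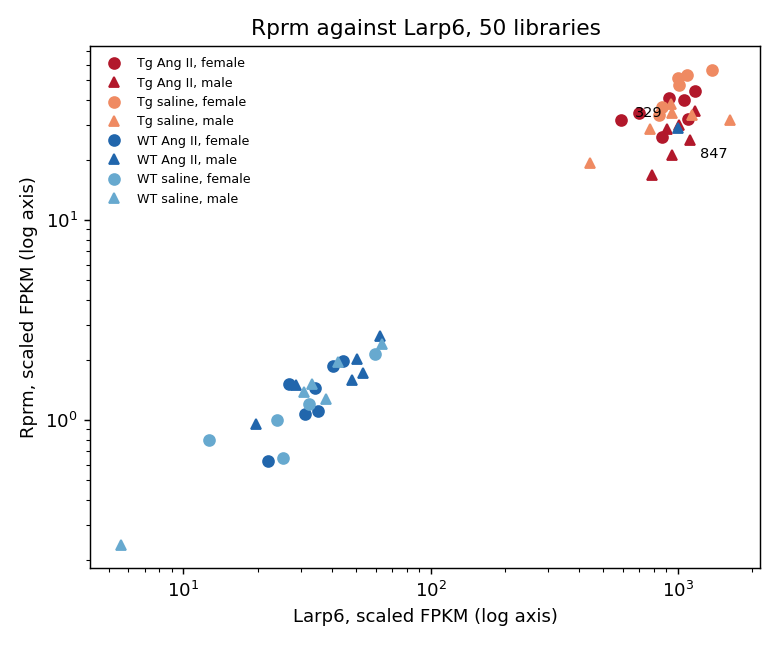
Scaled FPKM of Rprm against that of Larp6 in all 50 libraries (both axes log), coloured by genotype and treatment, with circles for females and triangles for males. Library 329, labelled WT, lies with the Tg libraries at 29.0 of Rprm, and the 24 other WT libraries lie between 0.239 and 2.65.

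The genes whose pattern was most like each member across the 50 libraries, by Pearson's r, are given as a description, since the genotypes alone spread these values apart. For Rprm they were Larp6 (r = 0.989), Pdlim3 (0.933) and Adamtsl5 (0.910). For Sprr1a they were Tgfb2 (0.948), a growth factor of the TGF-beta family, Rtn4 (0.944) and Pon2 (0.941). Those nearest to Uchl1 were Rtn4 (0.914), Mllt11 (0.903) and Enah (0.898), an actin regulator. Tnfrsf12a was nearest to Nppb (0.938), the gene of B-type natriuretic peptide, Spsb4 (0.934) and Synpo2l (0.932). Uck2 was nearest to Kif5b (0.920), a kinesin, Pfkp (0.912), a phosphofructokinase, and Hbegf (0.892), an EGF-like growth factor.

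Over the 25 Tg libraries, after the means of the 4 groups of treatment and sex were removed, the nearest genes were mostly others. Rprm was nearest to Slc25a42 (r = 0.828), a mitochondrial carrier, Mir208b (0.808) and Fh1 (0.803), the fumarase of the citric acid cycle. Sprr1a was nearest to Olfml2b (0.876), Mllt11 (0.838) and Dok5 (0.834). Uchl1 was nearest to Ttll12 (0.848), Shisa3 (0.844) and Star (0.834). Nppb (0.839) again led for Tnfrsf12a, before Tax1bp3 (0.837) and Rala (0.833), and Pfkp (0.834) for Uck2, before Itga9 (0.804) and Xpnpep1 (0.792).

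Of 8 tested relatives and partners of the members, 1 was higher and 1 lower in Tg minus WT under saline, where 20.4% of all genes were called higher and 20.2% lower. These relatives were added after their values were seen, so nothing is read from this count. For Rprm, Trp53, which encodes p53, averaged 3.64 ± 0.37 scaled FPKM in Tg saline and 3.40 ± 0.53 in WT saline (log2 difference 0.11 ± 0.09, adjusted p = 0.36). Cdkn1a, the p21 inhibitor induced by p53, differed by -0.05 ± 0.27 (adjusted p = 0.91), and the paralogue Rprml reached 0.113 scaled FPKM at most, with a highest count of 8. Sprr2a3 and Sprr3, of the family of Sprr1a, reached at most 0.034 and 0.045 scaled FPKM. For Uchl1, the hydrolase Uchl3 differed by 0.15 ± 0.08 between the saline groups (adjusted p = 0.12), and Uchl5 fell by 0.15 ± 0.05 in Tg (adjusted p = 0.015).

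Tnfsf12, which encodes TWEAK, the ligand of the receptor made from Tnfrsf12a, averaged 5.78 ± 0.94 scaled FPKM in Tg saline and 5.48 ± 0.61 in WT saline (log2 difference 0.07 ± 0.09, adjusted p = 0.54). It fell with Ang II in Tg hearts by 0.27 ± 0.09 on the log2 scale (adjusted p = 0.040). That was the 1 gene called lower with Ang II in Tg on the list of TWEAK and Fn14 signalling, and without libraries 329 and 847 that count was 0 of 19 in edgeR. The receptor gene Tnfrsf1a averaged 12.2 ± 0.79 scaled FPKM in Tg saline and 10.9 ± 0.79 in WT saline, and was higher in Tg (0.16 ± 0.06, adjusted p = 0.025). The kinases nearest to Uck2, Uck1 and Uckl1, differed between the saline groups by 0.01 ± 0.05 (adjusted p = 0.87) and 0.02 ± 0.04 (adjusted p = 0.70).

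Lists of pathway genes around the members, without the members themselves, were counted in Tg minus WT under saline and in WT Ang II minus saline, against the shares of all genes given above. Medians over all genes tested were 0.00044 in Tg minus WT and -0.0012 in Ang II minus saline. Some genes are on more than 1 list, and counts cover the genes tested. Of 23 p53 targets and arrest genes tested, 7 were higher and 2 lower in Tg under saline (median log2 difference 0.03), and 4 were higher with Ang II in WT. They include Perp (0.47 ± 0.07) and Phlda3 (0.60 ± 0.13), which were higher, and Ei24 (-0.15 ± 0.03), which was lower. Of 16 genes of G2/M and proliferation, 7 were tested. Of these 7, 3 were higher in Tg under saline (median 0.81) and 4 with Ang II in WT (median 1.13). These 3 were Top2a (1.20 ± 0.42), Ccna2 (1.05 ± 0.39) and Mki67 (1.04 ± 0.38), and their mean levels stayed under 1 scaled FPKM in every group.

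Of 4 genes of the SPRR family and cornified envelope tested, 3 were higher in Tg under saline, namely the transglutaminase Tgm2 (0.80 ± 0.10), S100a10 (0.53 ± 0.11) and S100a11 (0.52 ± 0.12), and 3 were higher and 1 lower with Ang II in WT. The nerve-injury list had 3 higher and 1 lower of 8 tested in Tg, among them the adhesion receptor Cd44 (1.53 ± 0.14) and the heat shock protein Hspb1 (0.49 ± 0.08), higher, and Stmn2 (-0.44 ± 0.10), lower. In WT, 2 of these 8 were higher with Ang II. The ubiquitin list had 3 higher and 3 lower of 18 tested in Tg, with Otub2 (0.54 ± 0.12) and Usp28 (0.18 ± 0.05) higher and Bap1 (-0.18 ± 0.05) lower, and 2 higher and 1 lower with Ang II in WT.

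Of 19 genes of TWEAK and Fn14 signalling, 4 were higher and 5 lower in Tg under saline, including Nfkb2 (0.31 ± 0.07) and Traf3 (0.40 ± 0.09), higher, and Chuk (-0.21 ± 0.05), lower, while with Ang II in WT 0 were higher and 1 lower. Of 7 other TNF receptors, 4 were higher in Tg, among them Tnfrsf1b (0.43 ± 0.10), Tnfrsf23 (0.33 ± 0.09) and Ltbr (0.16 ± 0.06), and 2 with Ang II in WT. The pyrimidine list had 5 higher and 3 lower of 23 in Tg, led by the deaminase Cda (2.37 ± 0.31), Nme1 (0.52 ± 0.10) and the CTP synthase Ctps (0.42 ± 0.08), and 3 higher and 3 lower with Ang II in WT. In Tg minus WT under Ang II the same lists gave other counts. The G2/M list had 0 of 7 called in edgeR and the TNF receptors 0 higher and 2 lower of 7. The SPRR list had 1 higher of 4, or 3 without libraries 329 and 847. The p53 list had 6 higher and 2 lower, the nerve-injury list 4 higher and 1 lower, the ubiquitin list 3 higher and 2 lower, the TWEAK list 3 higher and 3 lower, and the pyrimidine list 4 higher and 4 lower. Without libraries 329 and 847 the ubiquitin list had 2 higher and 1 lower, the TWEAK list 3 higher and 5 lower, and the pyrimidine list 4 higher and 5 lower. The G2/M, TNF receptor, p53 and nerve-injury counts were then the same. Whether a list's difference changed with treatment was not tested. The lists' medians lay between 0.02 and 0.81 in Tg minus WT under saline and between -0.02 and 1.13 with Ang II in WT. With libraries 329 and 847 left out the counts with Ang II in WT were the same for every list except pyrimidine, with 2 in place of 3 higher.

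Of the 20 nearest tested genes beside the members on their chromosomes, 2 were higher and 4 lower in Tg minus WT under saline, against 20.4% of all genes called higher and 20.2% lower. The 2 tested genes on either side of each member were taken. Kcnj3, 1350 kb from Rprm, was lower in Tg under saline (-0.76 ± 0.10, adjusted p = 8.1e-08). So were Gpd2, 3152 kb from Rprm (-0.23 ± 0.06), Limch1, 58.6 kb from Uchl1 (-0.28 ± 0.06), and Aldh9a1, 64.7 kb from Uck2 (-0.65 ± 0.10). S100a11, 1035 kb from Sprr1a (0.52 ± 0.12), and Gm6517, 203 kb from Uchl1 (0.52 ± 0.20), were higher. Hcfc1r1, which lies 0.218 kb from Tnfrsf12a, differed by 0.04 ± 0.06 (adjusted p = 0.61). Uchl1 overlaps the antisense gene Uchl1os by 408 bases, and Uck2 overlaps Gm2453 and Gm37982. The strand setting of the counting is not given in the sources used here, but these 3 genes had mean counts of 0.64, 0.52 and 0.14 per library, against 829.04 for Uchl1 and 3240 for Uck2.

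Markers of other cell types moved with the transgene, and in tissue RNA fewer cells of a type and less RNA per cell cannot be told apart. In Tg minus WT under saline, 10 of 10 fibroblast markers and 8 of 9 tested macrophage markers were higher, 8 of 8 endothelial markers were lower, and 5 of 8 cardiomyocyte markers were lower and 1 higher. All 4 load markers (Nppa, Nppb, Myh7 and Ankrd1) were higher. In Tg minus WT under Ang II, 7 fibroblast and 6 macrophage markers and all 4 load markers were higher, 8 endothelial markers were lower, and 5 cardiomyocyte markers were lower and 1 higher. With Ang II in WT, 4 fibroblast markers were higher and 1 lower, 1 macrophage marker was higher, 1 endothelial marker was lower and all 4 load markers were higher. When both doubtful libraries (329 and 847) were left out, no fibroblast marker was lower with Ang II in WT. In Tg minus WT under Ang II, 7 macrophage markers were then higher, and the other counts were the same. Summed macrophage markers ranged from 152 to 425 scaled FPKM in Tg saline and from 99.7 to 129 in WT saline, and fibroblast markers from 495 to 750 in Tg saline and from 385 to 502 in WT saline. Endothelial sums ranged from 89.4 to 124 in Tg saline and from 128 to 198 in WT saline, and cardiomyocyte sums from 12709 to 14724 in Tg saline and from 14175 to 17411 in WT saline. The part of these shifts in the members' levels was not tested.

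Markers of the cells in which Uchl1 and Sprr1a are otherwise best known were mostly low, and some neuron markers were detected. Of 10 peripheral neuron markers in the table, 7 averaged under 0.1 FPKM, among them Prph, Th, Nefl and Nefm, and the sum over all 10 ran from 2.60 to 5.17 scaled FPKM in Tg Ang II, from 2.50 to 3.51 in Tg saline, from 1.91 to 3.36 in WT Ang II and from 2.03 to 3.01 in WT saline. The 2 tested were Tubb3, a tubulin of neurons, and Stmn2. Tubb3 averaged 2.08 ± 0.71 scaled FPKM in Tg Ang II, 1.24 ± 0.25 in Tg saline, 0.732 ± 0.43 in WT Ang II and 0.698 ± 0.28 in WT saline. Its log2 difference of Tg minus WT was 1.51 ± 0.22 under Ang II (adjusted p = 9.8e-07) and 0.83 ± 0.25 under saline (adjusted p = 0.0056). Tubb3 also rose with Ang II in Tg (0.76 ± 0.23, adjusted p = 0.029), while in WT the value was 0.09 ± 0.24 (adjusted p = 0.84). Stmn2 was lower in Tg by 0.46 ± 0.09 under Ang II and by 0.44 ± 0.10 under saline. The part of these neuron markers in the level of Uchl1 was not tested. Of 8 keratinocyte markers in the table, 5 averaged under 0.1 FPKM, including Krt5, Krt14, Krt1 and Ivl, and the sum stayed under 1 in all 50 libraries. Schwann cell markers summed to 2.61 to 4.33 in Tg saline and to 3.67 to 5.66 in WT saline, and the 1 marker tested, Cdh19, was not called (-0.32, adjusted p = 0.074).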

How the data were processed

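RNA was measured in 50 left-ventricle libraries, grouped by title. The labels do not state 1 mouse per library, so p-values measure the spread between these libraries. Per the labels' protocols, poly(A) RNA was made into paired-end libraries by a dUTP method. Tools named in the submitters' processing notes are HISAT2 2.0.4, StringTie 1.3.4d, cutadapt 1.9 and FastQC; the build, counting tool and strand setting are not given in the sources used here. The authors deposited whole-number counts and FPKM per gene; positions matched GENCODE M21. Whole-number counts were tested as deposited with edgeR 4.0.16 (R 4.3.3), by quasi-likelihood, 8 group means, median-of-ratios scaling and Benjamini-Hochberg adjustment over 11628 genes, at an adjusted p under 0.05. SEs come from the model. FPKM levels were divided by factors of 0.778 to 1.14. Correlations used 100000 resamples within sex, two-sided, adjusted over 80 relations. DESeq2 1.42.0 and limma 3.58.1 were alternatives. The test was checked on simulated data. The members, gene lists and rules were chosen with earlier results of these data known. Named genes were the members, Larp6, Nppa, the 3 genes most like each member in 2 sets of libraries, 3 per list by smallest p under saline, and the 2 tested neighbours on each side; relatives were added after their values were seen.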

Additional observations from a re-analysis of the deposited data

Results flagged for a closer look

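In groups of 5 to 7 libraries of 1 genotype, treatment and sex, the highest or lowest library stood far from the rest in 9 cases of 40 tested. About 1 group in 20 is flagged by chance if values are normally distributed. Levels were not put on a log scale for this check, and the part of their skew in these flags was not tested. In every case the flagged library was the highest, and 6 libraries account for all 9.

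Library 329, labelled a WT Ang II male, had 29.0 scaled FPKM of Rprm (the next highest of its group had 2.65), 11.2 of Sprr1a (next 2.60) and 51.4 of Tnfrsf12a (next 23.1). Its Larp6 level was 1001 scaled FPKM, and the table's header gives it the letters of Tg.

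Library 779, a WT Ang II female, had 3.59 scaled FPKM of Sprr1a (next 0.765) and 14.03 of Uchl1 (next 6.58). It also had the highest Nppa of its group, 1144 scaled FPKM, with 34.9 of Larp6. Library 165, another WT Ang II female, had 13.4 scaled FPKM of Uck2 (next 7.77) and 37.9 of Tnfrsf12a.

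Library 715, a Tg Ang II male, had 26.4 scaled FPKM of Uck2 (next 14.1). Library 160, a Tg saline male, had 11.5 of Sprr1a (next 6.14), and library 332, a WT saline female, had 0.774 of Sprr1a (next 0.232).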

How the results depend on the processing

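Alternatives were other scalings, filters, tools, pseudocounts, a block for clusters of library numbers and leaving out each library. For the correlations, leaving out libraries 329 and 847 and taking each sex alone were chosen after seeing the data, as was the fit with sex as an additive term. Of 620 alternative values for the members' Ang II effects, 593 kept their direction and side of the threshold.

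Ang II in WT gave log2 fold changes that did not pass for Rprm with no filter (1.11), limma at pseudocounts of 1 and 0.1 (0.45 and 0.68), the block (0.88), without libraries 329 and 847 (0.24), in females (0.23) and in males (1.958), and for Uchl1 in males (0.69). Ang II in Tg did not pass for Uchl1 with no filter (0.56), without libraries 329 and 847 (0.49), in females (0.42) and in males (0.69), nor for Uck2 in females (0.42). Leaving out 1 library gave 0.24 to 1.26 for Rprm in WT and 0.49 to 0.60 for Uchl1 in Tg.

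Values near 0 changed sign. The interaction of Uck2 was -0.028 by library size, -0.24 in females and -0.10 to 0.15 without 1 library. Female minus male of Uchl1 in Tg was 0.0083 by library size and 0.023 and 0.028 in limma. In WT it was 0.030 by library size, 0.012 and 0.013 in limma, 0.0046 with the block, 0.074 without libraries 329 and 847, and -0.18 to 0.074 without 1 library. For Uck2 in WT it was 0.024 by library size, 0.0089 and 0.013 in limma, 0.044 without libraries 329 and 847, and -0.13 to 0.058 without 1 library.

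Counts of genes called moved as follows. Ang II in WT gave 665 in females and 590 in males. Ang II in Tg gave 634 with no filter, 6 in females, 516 in males and 656 (without library 715) to 1128 without 1 library. The interaction gave 8 by library size, 2 with no filter, 40 in DESeq2, 1 and 2 in limma, 0 with the block in edgeR, 3 without libraries 329 and 847, 1 in females, 1 in males and 2 to 21 without 1 library. Female minus male in Tg gave 186 by library size, 132 in DESeq2, 350 and 278 in limma and 44 to 88 without 1 library. In WT it gave 59 with no filter, 163 in DESeq2, 49 and 55 in limma, 63 with the block, 65 without libraries 329 and 847 and 62 to 174 without 1 library. Tg minus WT gave 3106 in females and 2159 in males under saline, and 2181 and 2015 under Ang II. The Tg minus WT difference of Sprr1a under saline was 2.53 in limma at a pseudocount of 1, and that of Rprm under Ang II was 4.31 without libraries 329 and 847, 4.70 in females and 2.19 in males. Without the 2 farthest libraries 5 correlations passed. Apart from fewer libraries or other genes tested, the cause of these shifts was not tested.

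No paired analysis was possible because replicate numbers here only name libraries in accession order. The low counts of Sprr1a in WT limit its precision.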
